A study of Mus musculus with 6 samples.

Results

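Transcripts of 9 genes that make, break down or regulate glycogen were read in mouse liver: the glycogen-targeting phosphatase subunits Ppp1r3b, Ppp1r3c, Ppp1r3d and Ppp1r3g, the synthesis enzymes Ugp2, Gys2 and Gbe1, the phosphorylase Pygl, and the phosphorylase kinase subunit Phka2. All probe sets annotated to exactly 1 of these symbols were taken, 16 in all, out of 45037 probe sets that are not array controls and 18193 genes with a probe set of their own. The genes were chosen from the glycogen pathway with earlier results of the same isolated-against-control comparison in view, including the low Ppp1r3g signal of isolated mice, and no threshold was applied. Their changes are therefore given as a description, with standard errors and intervals but no p-value.

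The livers came from male BALB/c mice aged 10 weeks, with 3 arrays from control mice and 3 from mice isolated for 30 days. All mice entered at 4 weeks of age, 5 to a cage, and had 10 days to settle before isolation to 1 mouse per cage with reduced bedding. Water and a standard diet were free to both groups, and neither the hour of sampling nor the time since feeding is stated in the labels. The labels number the samples but do not say that each came from a separate mouse, so any p-value measures only the spread between these samples, which may be technical.

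Glycogen is the branched glucose store that liver fills after meals and empties between them. UDP-glucose, made by the pyrophosphorylase Ugp2, is added to the growing chains by the liver glycogen synthase Gys2, and Gbe1 sets the branches. Pygl, the liver phosphorylase, releases glucose phosphate again and is switched on by phosphorylase kinase, of which Phka2 is the liver regulatory subunit. Protein phosphatase 1 reverses these phosphorylations, which activates the synthase and turns off the phosphorylase. It reaches glycogen only through targeting subunits of the Ppp1r3 family, which bind both glycogen and the phosphatase.

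The tissue label was checked first. The hepatocyte transcripts Alb, Apoa1 and Ttr read at least 9947 on every array, and the summed signal of 7 hepatocyte markers ran from 60376 to 65770 in controls and from 60305 to 65107 in isolated mice. The median signal per array lay between 18.4 and 22.1. The mean signal with 2% trimmed from each end ran from 92.5 on isolated replicate 2 to 111 on isolated replicate 3, with control replicate 3 at 108. Isolated replicate 3 was thus the brightest array by this mean, and the reported changes were not rescaled for it. The 3′ over 5′ signal ratio of the array controls, a sign of RNA integrity, differed between the groups by -0.0273 (Gapdh) and -0.0362 (actin) on the log2 scale, with exact two-sided permutation p of 0.2 and 0.8, where 3 arrays against 3 cannot give less than 0.1. Of the fat cell markers, Adipoq, Retn and Fabp4 were highest on isolated replicates 2 and 3, as given with Ppp1r3c. Lep, Cidea and Lipe were not highest on both.

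Levels are MAS5 signals, a linear intensity per probe set. Changes are differences of mean log2(signal + 2), isolated minus control. The brighter 50% of probe sets, those with a mean log2 value above that of a signal of about 18, entered a limma fit of 22519. Of the 16 probe sets, 13 from 8 genes passed this filter; the probe set of Ppp1r3d and 2 of the 3 of Phka2 did not. In the whole fit 174 probe sets (0.773%) were higher and 193 (0.857%) lower at an adjusted p under 0.05, together 1.63%. Among the 13 probe sets, 2 were called higher, both of Ppp1r3c, and 1 lower, that of Ppp1r3g, and 10 were not called. As the genes were chosen with this comparison known, nothing is read from that count. The same 3 probe sets were the ones whose groups did not overlap, against 15.4% of all tested probe sets.

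The promoters of Ppp1r3c and Ppp1r3g are shown because the called probe sets belong to these 2 targeting subunits, which went in opposite directions. The sequences are from RefSeq (GRCm38.p6), which held an entry for 7 of the 9 genes. Each runs 5′ to 3′ on the gene's strand and ends at the annotated start site, and capitals mark motif matches. Ppp1r3c lies on the minus strand at chr19:36736605-36736854 and Ppp1r3g on the plus strand at chr13:35967656-35967905.
Ppp1r3c: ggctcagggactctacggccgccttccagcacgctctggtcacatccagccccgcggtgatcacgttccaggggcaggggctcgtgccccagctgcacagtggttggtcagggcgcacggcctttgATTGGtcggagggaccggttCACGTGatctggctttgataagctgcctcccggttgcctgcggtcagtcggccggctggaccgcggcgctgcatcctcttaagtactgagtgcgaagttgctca
Ppp1r3g: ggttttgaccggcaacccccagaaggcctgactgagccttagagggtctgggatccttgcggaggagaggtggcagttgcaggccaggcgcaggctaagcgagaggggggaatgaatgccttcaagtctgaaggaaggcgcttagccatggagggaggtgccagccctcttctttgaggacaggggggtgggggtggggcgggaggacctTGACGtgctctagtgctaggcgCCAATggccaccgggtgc

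On both strands, 7 motifs were searched: the E-box CACGTG, the cyclic AMP response element TGACGTCA and its half-site TGACG, the forkhead site TGTTTAC, the sterol element TCACNCCAC, the CCAAT box and the TATA box (TATAAA). The Ppp1r3c window held the E-box, which starts 104 bases before the start site, and a CCAAT box in the opposite orientation at 124. The Ppp1r3g window held a half-site at 40 bases and a CCAAT box at 18 bases before the start. Ppp1r3d held an E-box at 226, which overlaps a half-site at 222, and a further half-site on the opposite strand at 68. Among all 32851 promoter windows of 250 bases, 6.0% held the E-box, 17.8% the half-site and 33.8% the CCAAT box. The full response element, the forkhead site, the sterol element and the TATA box, found in 1.5%, 3.2%, 1.1% and 12.4% of all windows, had no match in the windows of any of the 7 genes. Of the other members, Pygl had a half-site on the opposite strand at 44 bases, 1 of 2 Ugp2 windows had a CCAAT box at 49, and the Gbe1 and Phka2 windows had no match. These matches describe letters in a window and not sites in use.

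Ppp1r3c, which encodes the scaffold known as protein targeting to glycogen, had higher signals in isolated livers by both of its probe sets. Ppp1r3g, a further targeting subunit, had lower signals. Ppp1r3b, the main liver form, overlapped between the groups, and Ppp1r3d, a more widely expressed form, stayed below the filter.

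**Figure D1:**
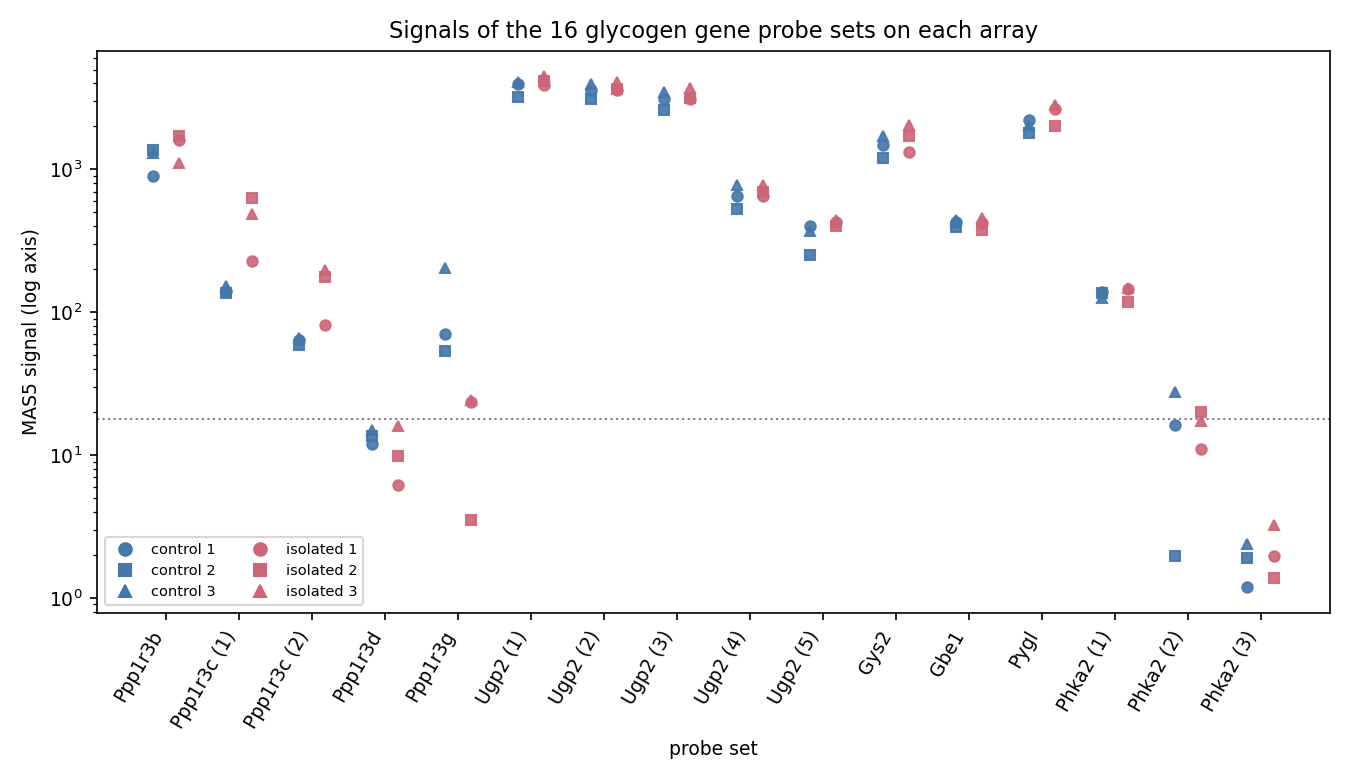
MAS5 signal (log axis) of each of the 16 probe sets on each array, controls in blue and isolated in red, with symbols for the replicate number. The dotted line is the signal of 18 at which the filter lies, and numbers in brackets order the probe sets of 1 gene by mean signal. Blue and red separate at both Ppp1r3c probe sets and at Ppp1r3g.

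The brighter Ppp1r3c probe set, 1433691_at, read 140, 136 and 152 on control replicates 1, 2 and 3, against 229, 633 and 487 on isolated replicates 1, 2 and 3. Every isolated array lay above every control, but isolated replicate 1 was far nearer to the controls than the other isolated arrays. The controls were tight, with the highest 1.12 times the lowest, while the isolated arrays spread 2.76-fold. The control mean was 143 ± 8.33 and the isolated mean 450 ± 205 (SD, n = 3 arrays each), 2.88-fold higher on the log2(signal + 2) scale. The log2 change was 1.52 ± 0.26 (SE), with a 95% interval of 0.99 to 2.06.

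The other Ppp1r3c probe set, 1425631_at, showed the same order of groups at lower signals. It read 64.4, 59.2 and 66.5 on the control arrays against 81.4, 177 and 197 on the isolated arrays. The groups again did not overlap, and isolated replicate 1 was again the nearest to the controls. Its mean was 63.4 ± 3.78 in controls against 152 ± 61.7 in isolated mice (SD, n = 3 arrays each), and the log2 change was 1.14 ± 0.26 (SE) with a 95% interval of 0.60 to 1.68. The probe sets thus gave 2.88-fold and 2.20-fold, and their intervals overlap.

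Against the control mean, the brighter probe set stood 0.68, 2.14 and 1.76 log2 units higher on isolated replicates 1, 2 and 3, and the dimmer 0.35, 1.45 and 1.61. The size of the Ppp1r3c change rested on isolated replicates 2 and 3. Without these, which leaves 1 isolated array that is assumed to vary like the controls, the log2 changes were 0.68 and 0.35 and neither probe set was called. With 1 array left out at a time, the change of the brighter probe set ran from 1.22 to 1.95 and it stayed among the calls each time. The dimmer ran from 0.90 to 1.53, and its call ended without control replicate 3, isolated replicate 2 or isolated replicate 3. The call of the brighter probe set ended without the intensity trend and with a robust trend. That of the dimmer ended without the trend, without the filter, with array weights, and with quantile normalization or trimmed mean scaling.

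Fat tissue also makes Ppp1r3c, and some fat cell markers, though not all, were higher on the same arrays. Adipoq, which encodes adiponectin, read 4.38, 8.48 and 15.6 on the control arrays against 3.78, 59.5 and 54.8 on isolated replicates 1, 2 and 3. Retn, the resistin gene, read 2.39, 2.78 and 3.88 on the control arrays against 2.65, 20 and 42.2 on the isolated arrays. Both were at control level on isolated replicate 1 and high on the other isolated arrays. Fabp4, a fatty acid binding protein of fat cells and macrophages, read 117, 202 and 157.5 on the control arrays against 203, 300 and 404 on the isolated arrays, with a limma adjusted p of 0.0578.

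Of 8 listed fat cell markers, 6 had a probe set of their own, 2 passed the filter and 0 were called by limma. Their summed signal ran from 203 to 295 in controls and from 284 to 544 in isolated mice. Lep, which encodes leptin, read between 0.775 and 3.30 on all arrays, near the bottom of the scale. Cidea read 1.76 to 18.3 over all arrays, with its lowest value on isolated replicate 3. Lipe, the hormone-sensitive lipase gene, read 63.4, 61.7 and 66.2 on the control arrays. It read 61.3, 76.7 and 38.6 in isolated replicates 1, 2 and 3. On isolated replicate 1, Adipoq and Retn were within the control range or below it. Fabp4 read 202.6 there, beside 202.0 on the highest control. Both Ppp1r3c probe sets read above every control on that array, at 229 against at most 152 and 81.4 against at most 66.5. Skeletal muscle, which makes Ppp1r3c as well, had all 6 listed markers below the filter, with sums of 24.5 to 79.3 in controls and 40.7 to 67.9 in isolated mice. None of the tested macrophage, endothelial, stellate, bile duct, lymphocyte and red cell markers was called by limma. The part of fat cell RNA in the Ppp1r3c signal was not tested, and in such bulk samples more cells of a type cannot be told apart from more RNA per cell.

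**Figure D2:**
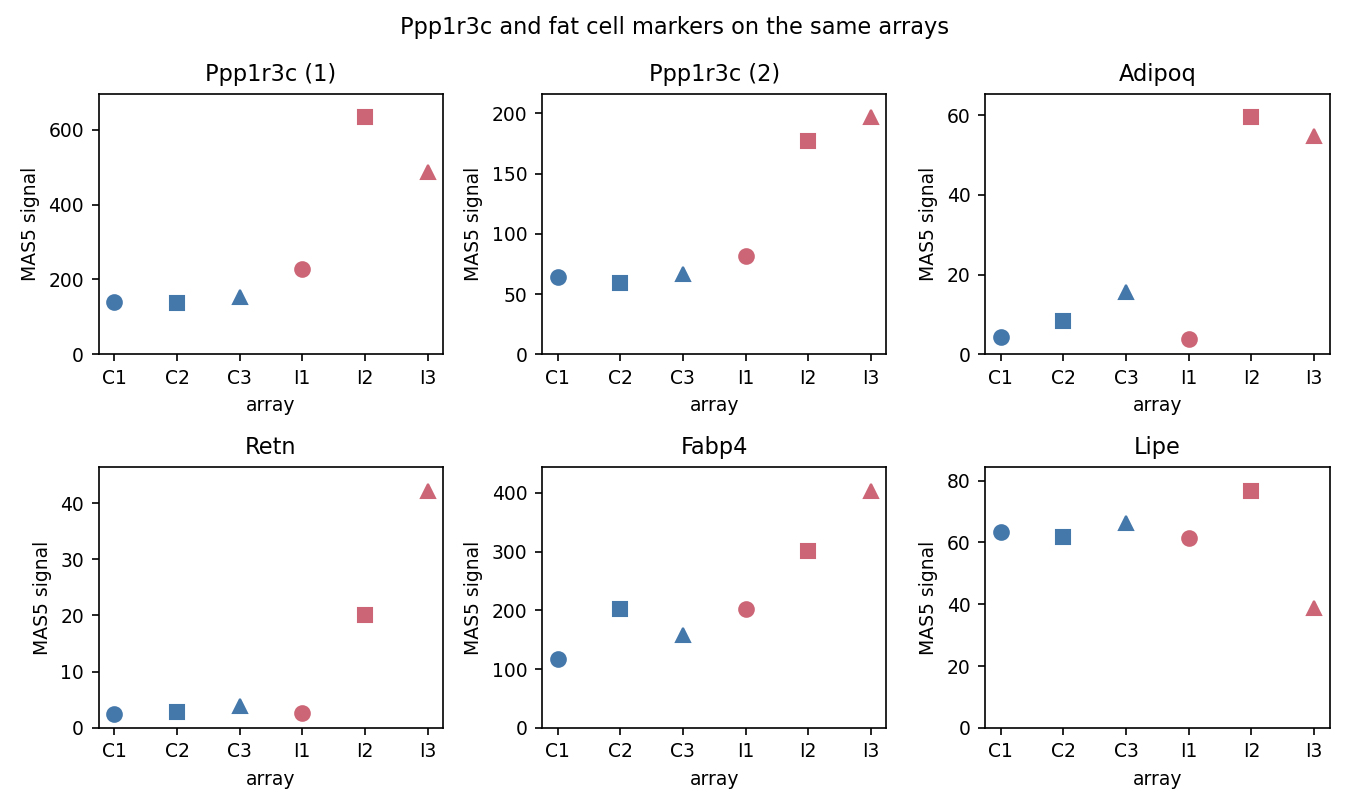
MAS5 signal (linear axes from 0) of both Ppp1r3c probe sets and of 4 fat cell markers on each array; C1 to C3 are control and I1 to I3 isolated replicates. Ppp1r3c, Adipoq and Retn are highest on I2 and I3, while on I1 Ppp1r3c reads 229 and 81.4 and Adipoq 3.78.

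Ppp1r3g moved the other way. Its probe set, 1428923_at, read 70.6, 53.2 and 204 on control replicates 1, 2 and 3, against 23.6, 3.51 and 24.1 on the isolated arrays. The groups did not overlap, but control replicate 3 stood well above the other controls and isolated replicate 2 well below the other isolated arrays. The mean fell from 109 ± 82.7 to 17.0 ± 11.7 (SD, n = 3 per group). The log2 change was -2.61 ± 0.50 (SE), with a 95% interval of -3.64 to -1.57, or 6.09-fold. That fold is approximate, since the isolated mean lies under the signal of 18 at which the filter was set. The probe set passed the filter only through the control arrays, so a difference between the groups was built into its entry, and its call, like those of Ppp1r3c, restates how the genes were chosen and supports nothing.

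The within-group SD of Ppp1r3g on the log2 scale was 1.15, the largest of the 13 tested probe sets, against 0.54 and 0.49 for Ppp1r3c. With 1 array left out, its log2 change ran from -2.99 without control replicate 2 to -1.86 without isolated replicate 2, a fold of 3.64, and the call ended without control replicate 3, where it was -2.04. It also ended without the filter, with quantile normalization, without the intensity trend and with a robust trend, and a pseudocount of 16 gave 3.50-fold. Without isolated replicates 2 and 3 together, which leaves 1 isolated array, the log2 change was -1.88.

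Isolated replicate 2 held the highest signal of the brighter Ppp1r3c probe set and the lowest of Ppp1r3g. Isolated replicates 1 and 3, at 229 and 487 in Ppp1r3c by that probe set, had nearly the same Ppp1r3g signal, 23.6 and 24.1. Control replicate 3, with the highest Ppp1r3g, had Ppp1r3c signals of 152 and 66.5, the highest of the controls by a small margin.

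Ppp1r3b read 903, 1369 and 1293 on the control arrays against 1601, 1715 and 1101 on the isolated arrays. Isolated replicates 1 and 2 lay above every control, and isolated replicate 3 lay below control replicates 2 and 3. The log2 change was 0.31 ± 0.18 (SE), with a 95% interval of -0.07 to 0.68, and it ran from 0.12 to 0.50 with 1 array left out. The interval allows a fold between 0.952 and 1.60. The 2.88-fold and 2.20-fold of Ppp1r3c lie outside it, but the interval of the dimmer Ppp1r3c probe set starts at 1.51-fold and overlaps it.

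Ppp1r3d read 11.9, 13.7 and 14.9 on the control arrays against 6.14, 9.86 and 16 on the isolated arrays. All of these values are under the signal of 18, the groups overlapped, and the probe set was not tested. Its log2 difference was -0.36, and -0.08 to -0.65 with 1 array left out.

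**Figure D3:**
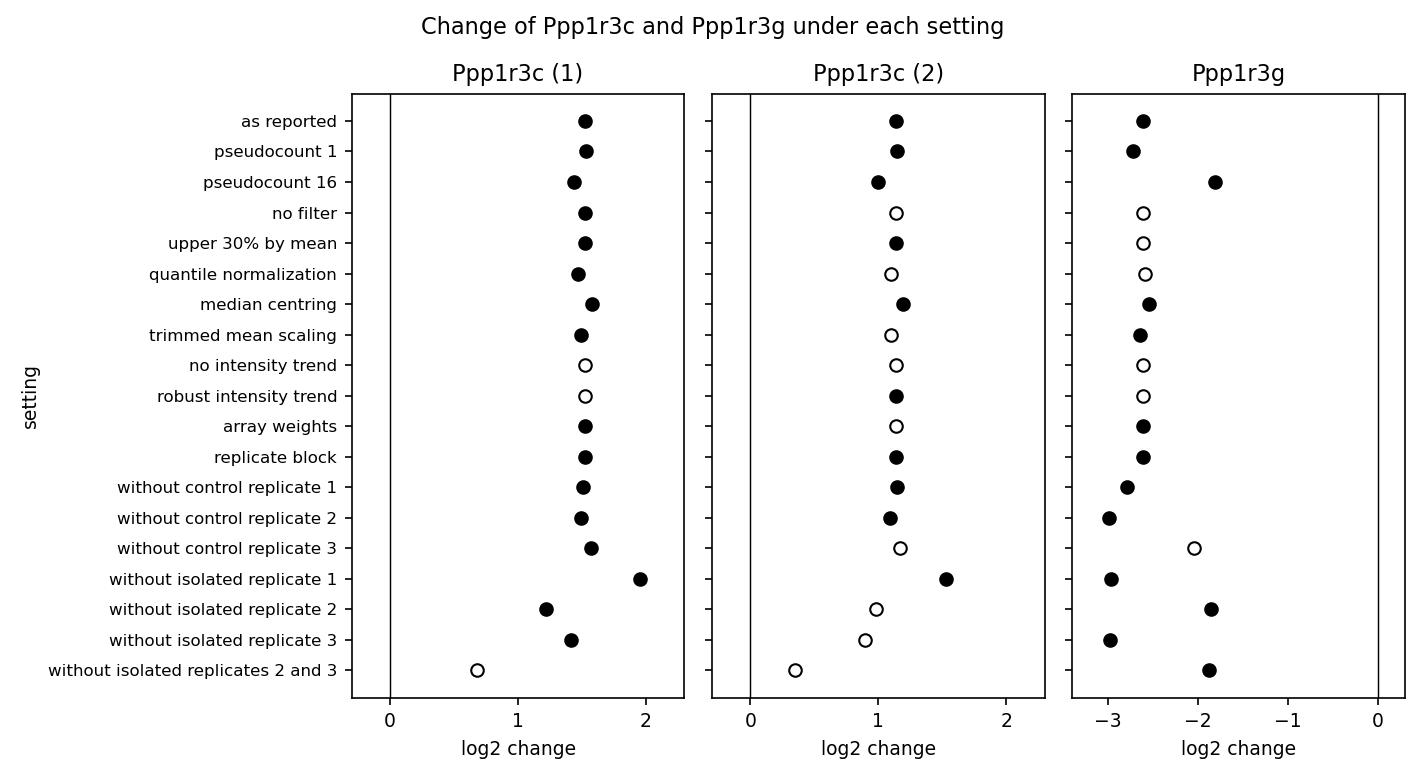
Log2 change (isolated minus control) of both Ppp1r3c probe sets and of Ppp1r3g as reported and under 18 other settings; filled circles were called at an adjusted p under 0.05 and open circles were not called or not tested. No setting turned the direction, but those of the filter, intensity trend, array weights and replicate block could not move the log2 change. The Ppp1r3c changes shrink to 0.68 and 0.35 without isolated replicates 2 and 3.

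The synthesis enzymes overlapped between the groups at every probe set. Gys2, which encodes the synthase itself, read 1479, 1198 and 1715 on the control arrays against 1316, 1712 and 2032 on the isolated arrays. Only isolated replicate 3 lay above all controls. The log2 change was 0.20 ± 0.17 (SE), with a 95% interval of -0.15 to 0.55, and it was -0.14 with isolated replicate 1 as the only isolated array and 0.36 without that array.

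Ugp2, the source of UDP-glucose, was read by 5 probe sets with log2 changes of 0.09 to 0.33, none of them called. The brightest, 1451742_a_at, read 3967, 3222 and 4127 on the control arrays against 3895, 4168 and 4490 on the isolated arrays. Control replicate 2 was the lowest array at all 5 probe sets, and isolated replicate 3 was above every control at 4 of them. The log2 change of the brightest was 0.16 ± 0.13 (SE), with a 95% interval of -0.11 to 0.42. The dimmest probe set, 1426460_a_at, read 401, 253 and 373 on the control arrays against 427, 400 and 444 on the isolated arrays and gave the largest of the 5 changes, 0.33 ± 0.18 (SE), which was 0.13 without control replicate 2. All 5 share the gene and the arrays, so their common sign is not independent, and 1434486_x_at is of a type that can bind other transcripts too.

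Gbe1, the branching enzyme, was the most even of the enzymes. It read 425, 393 and 441 on the control arrays against 424, 377 and 458 on the isolated arrays, so that each isolated array had a control close to it. The log2 change was -0.003 ± 0.16 (SE), with a 95% interval of -0.34 to 0.33.

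On the breakdown side, Pygl read 2227, 1807 and 2059 on the control arrays against 2636, 2001 and 2829 on the isolated arrays. Isolated replicates 1 and 3 lay above every control, and isolated replicate 2 fell among them. The log2 change was 0.28 ± 0.15 (SE), with a 95% interval of -0.02 to 0.59, and it ran from 0.18 to 0.43 with 1 array left out. It was not called, and the interval allows a fold between 0.984 and 1.5.

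Phka2 was read by 3 probe sets, of which 1434518_at was bright enough to test. That probe set read 138, 136 and 126 on the control arrays against 145, 117 and 149 on the isolated arrays, which overlap. Its log2 change was 0.03 ± 0.19 (SE), with a 95% interval of -0.36 to 0.42. The other 2 probe sets read between 1.19 and 27.5 on all arrays and were not tested. One of these, 1437941_at, spread 14.0-fold among the controls alone, and its log2 difference ran from -0.39 to 1.06 with 1 array left out.

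**Figure D4:**
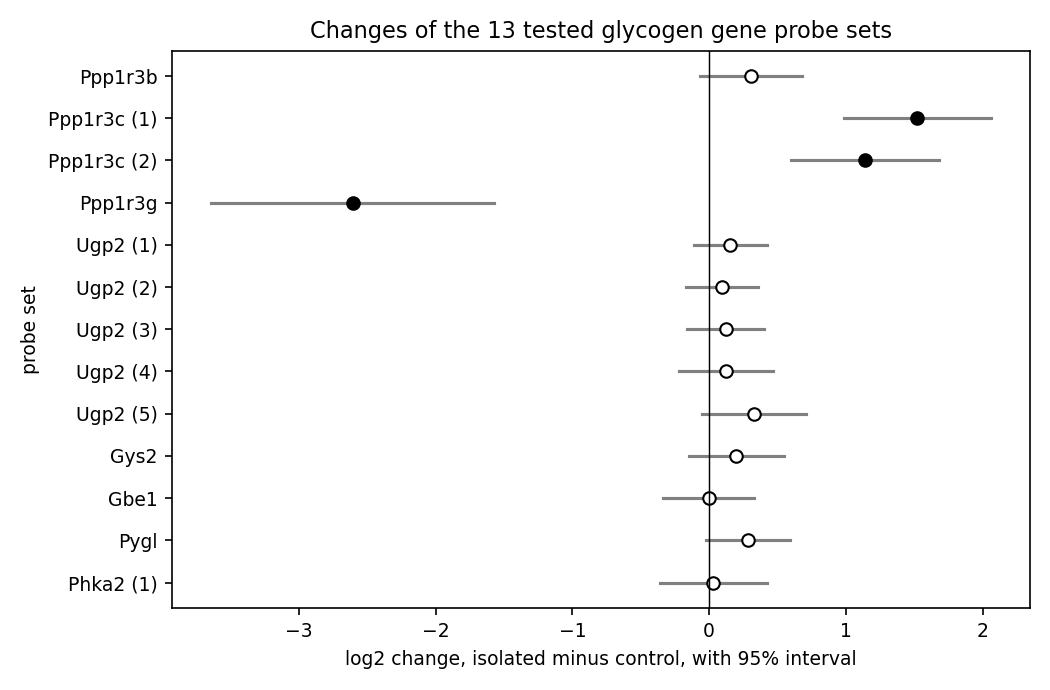
Log2 change (isolated minus control) of the 13 tested probe sets with 95% intervals from the limma fit; filled circles were among the calls of the whole-table fit. Ppp1r3c lies at 1.52 and 1.14, Ppp1r3g at -2.61, and the other 10 between -0.003 and 0.33.

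Over the 13 tested probe sets, 11 had log2 changes above 0 and 2 below. The median was 0.16, beside a median of 0.035 over all tested probe sets. Ugp2 supplied 5 of the 13 and Ppp1r3c 2, on the same arrays, so the signs are not independent. The share above 0 among all tested probe sets was not counted, and nothing is read from these signs. The 10 that were not called lay between -0.003 and 0.33. Their 95% intervals reached no higher than 0.71 and no lower than -0.36. The Ppp1r3c intervals started at 0.99 by the brighter probe set and at 0.60 by the dimmer, so the dimmer is not set apart from them. As Ppp1r3c was chosen with this comparison in view, nothing is read from that contrast.

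The rest of the pathway was read through a list of 49 further symbols, of which 4 had no probe set of their own and were not analysed here. A further 8 were below the filter. Of the 37 tested genes, 0 were called higher and 0 lower by limma, against 1.75% of all tested genes by the same probe set rule. At an unadjusted limma p under 0.05 there were 4 genes, or 10.8%. Counted by probe set there were 6 of 74, beside 11.4% of all tested probe sets. The count of genes was 2 with limma without the trend and 6 with a robust trend. The median log2 change was 0.12, beside 0.035 over all tested probe sets.

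The 4 genes were G6pc, Prkab1, Slc37a4 and Prkacb, of which the last pair was named after its values were seen. G6pc, the glucose-6-phosphatase that releases free glucose, read 3025 ± 142 in controls and 2004 ± 704 in isolated mice (SD, n = 3 per group). The groups did not overlap, but the limma adjusted p was 0.0881. Over the other settings with more than 1 isolated array, that p ranged from 0.00942 without isolated replicate 3 to 0.428 without the intensity trend. With isolated replicate 1 as the only isolated array, the log2 change was -1.23. Leaving out single arrays also moved the result. Without isolated replicate 3 the log2 change went from -0.66 to -0.90 and the gene was called lower (limma adjusted p 0.00942), and without isolated replicate 1 it was -0.37 (limma adjusted p 0.397). Slc37a4, the transporter that brings glucose phosphate to that enzyme, stood at 0.33 ± 0.15 (SE) on the log2 scale, at an adjusted p of 0.41 by limma. The AMP-activated kinase subunit Prkab1 had 0.45 ± 0.18 at an adjusted p of 0.305 by limma. The protein kinase A subunit Prkacb had 0.37 ± 0.18 at a limma adjusted p of 0.42. A further tested probe set of Prkab1 gave -0.12, the opposite direction, and that of Prkacb gave 0.21.

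By role, the genes of synthesis and glucose phosphate supply had a median log2 change of 0.15 over 6 tested genes. The breakdown genes had 0.14 over 3. Among them the lysosomal glucosidase Gaa had the smallest p, with -0.38 ± 0.20 (SE) and a limma adjusted p of 0.484. A further tested probe set of Gaa gave -0.05. The other phosphorylase kinase subunits had 0.15 over 3, with Phkg2, the liver catalytic subunit, at -0.14 ± 0.18 (SE) and a limma adjusted p of 0.866. The phosphatase 1 catalytic subunits and inhibitors had 0.07 over 5, with the inhibitor Ppp1r1b at -0.49 ± 0.27 (SE) and a limma adjusted p of 0.547.

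The kinases of glycogen synthase with laforin and malin had a median log2 change of 0.22 over 14 tested genes, from -0.32 to 0.59. The hormone receptors and their first signalling steps had 0.04 over 6, where the insulin receptor gene Insr stood at -0.23 ± 0.16 (SE) at an adjusted p of 0.678 by limma. Irs2 of that role, named after its values were seen, was below the filter and not tested. It read 18.9, 30.1 and 13.3 on the control arrays against 2.62, 2.72 and 7.46 on the isolated arrays. Its log2 difference was -1.88, at signals near the bottom of the scale. The remaining targeting subunits Ppp1r3a, Ppp1r3e and Ppp1r3f were all below the filter, with mean signals of 8.94 to 15.1 in controls and 10.8 to 23.9 in isolated mice. Within the Ppp1r3 family, therefore, 3 of the 7 genes read here passed the filter: Ppp1r3b, Ppp1r3c and Ppp1r3g.

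**Figure D5:**
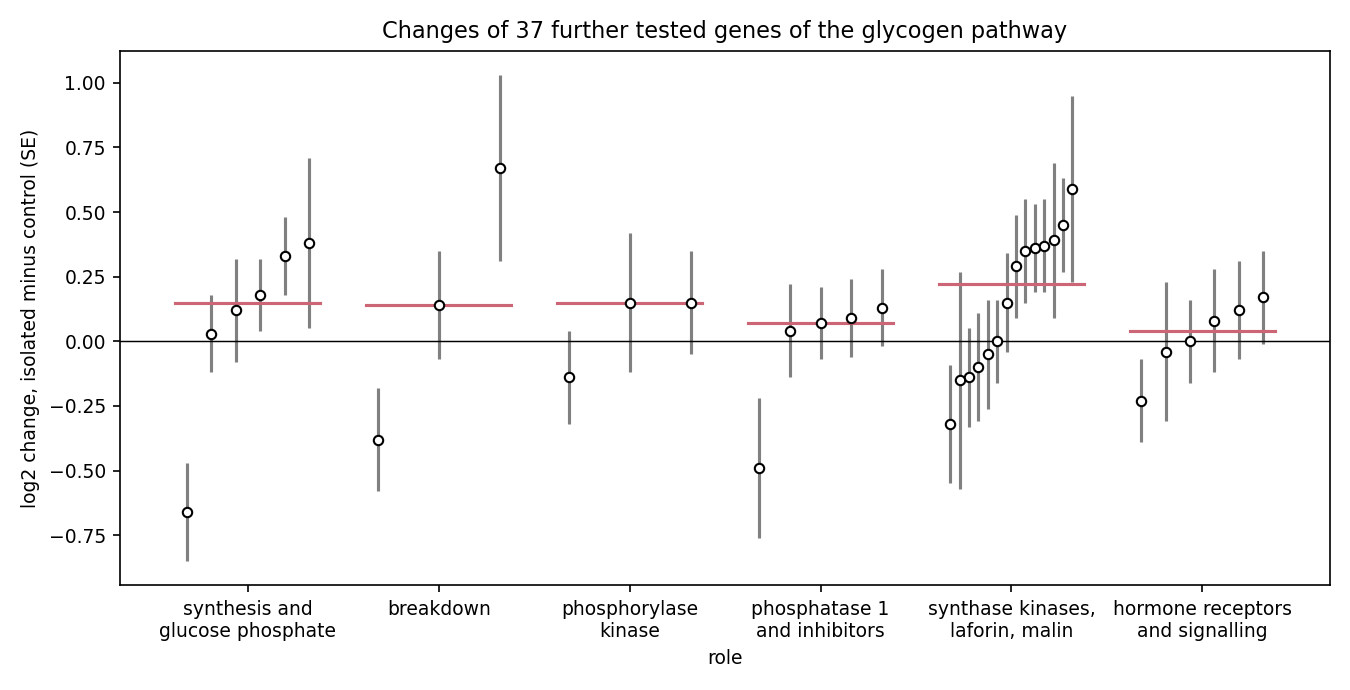
Log2 change (isolated minus control) with SE of 37 further pathway genes, grouped by role; red bars are the median of each role. The values, each from the brightest tested probe set of a gene, lie between -0.66 (G6pc) and 0.67, and 0 of the 37 were called. Other tested probe sets, not drawn, reached -0.76 (Pgm1) and 0.73 (Phka1).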

How the data were processed

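Per the labels' protocols, total liver RNA was extracted with TRIzol and RNeasy columns, and 2 µg was labelled with biotin and hybridised to Affymetrix mouse arrays. The authors made the deposited values, a linear intensity per probe set, with MAS5 per the submitters' processing notes. Its version, scaling target and detection calls are not stated there. That scale was kept, and a pseudocount of 2 was added to each signal before log2. The 64 array controls were set apart, and the upper 50% of the other 45037 probe sets by mean log2 value were fitted with limma 3.58.1 in R 4.3.3 (2 groups, eBayes with an intensity trend, two-sided, Benjamini-Hochberg over 22519). The prior from the trend had 16.1 degrees of freedom and the arrays gave 4, and the 95% intervals use their sum.

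Gene names came from the platform annotation, with 1 symbol for 34958 probe sets, several for 932 and none for 9211, and those with several were not used for any gene. A gene was represented by its tested probe set with the highest mean. All 9 genes matched the RefSeq table by gene identifier. The genes and lists were chosen with earlier results of these data known, and the motifs after the values were seen. Named were all 9 genes and, of the further pathway genes, up to 3 called genes per role or else the one with the smallest p. The procedure was run on simulated normal values with the same spread in both groups. That run does not cover unequal group spreads such as those of Ppp1r3c. Alternatives covered the pseudocount, filter, normalization, variance model, array weights, replicate number, threshold, probe set per gene and left-out arrays. With 3 arrays per group, their number limits the precision. Figures were drawn with matplotlib 3.10.9.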

Additional observations from a re-analysis of the deposited data

How the results depend on the processing

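The Ppp1r3c and Ppp1r3g changes kept their sign under all 18 alternatives, which the choice of these genes on the same comparison does not let count as support, and the calls varied. Against 2 probe sets called higher and 1 lower among the 13, the counts were 1 and 0 without the filter, with quantile normalization and with a robust trend, and 0 and 0 without the intensity trend. They were 1 higher with trimmed mean scaling or array weights, 0 higher without isolated replicates 2 and 3, and 0 lower in the upper 30% by mean, where Ppp1r3g is not tested. With each array left out in turn, 1 to 2 were higher and 0 to 1 lower. Over all probe sets, against 174 higher and 193 lower, there were 81 and 101 without the filter, 15 and 16 without the trend, 264 higher in the upper 30%, 90 higher without isolated replicates 2 and 3, 303 higher at an adjusted p under 0.1, 258 higher and 183 lower with median centring, 166 and 263 with trimmed mean scaling, and 148 and 242 with quantile normalization, so the balance between directions depends on the scaling. Leaving out each array gave 97 to 200 higher and 82 to 246 lower. Of the further pathway genes, 1 (G6pc) was lower in the upper 30%, with array weights, without isolated replicates 2 and 3 and at an adjusted p under 0.1, and 0 to 1 lower and 0 higher with each array left out. The cause of these shifts was not tested. A changed filter alters the number of probe sets adjusted for and also refits the variance prior, and these were not separated. Whether the replicate numbers pair the arrays was not settled. The deviations of same-numbered arrays correlated at 0.00777, 0.0436 and 0.00491, and those of differently numbered arrays at -0.0422 to 0.0373. Control replicates 2 and 3 correlated best with their own number, and control replicate 1 with isolated replicate 3. The replicate block gave 265 higher and 248 lower and changed no call of the 13 probe sets or the further pathway genes. Of the 288 log2 changes over the 16 probe sets and 18 alternatives, 284 moved by less than the within-group SD. Many of these could not move. Each change was taken from an unweighted fit of all probe sets. Settings of the filter, variance model, array weights and replicate block therefore left its size and sign as they were. Signals near the filter, such as Ppp1r3g in isolated mice, carry the least precision.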
